A study of Mus musculus with 6 samples.

Results

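The 10 genes Peg10, Sgce, Mest, Nap1l5, Peg3, Usp29, Zim1, Snrpn, Ndn and Magel2 are imprinted genes of mouse chromosomes 6 and 7. They were selected by symbol, with the counts of these libraries already known, and all 10 were found among the 43309 genes of the count table and among the 16823 genes that had at least 10 counts in 1 or more libraries. The table covers 6 TruSeq Stranded mRNA libraries of J1 (129SV) mouse embryonic stem cells (mESCs), which were grown in serum on gelatin without feeder cells. In 3 control libraries the cells were Zbtb24 wild-type (2lox/+), which denotes 1 allele with loxP sites around an intact segment and 1 unmodified allele. In 3 further libraries the cells were Zbtb24 knockout (1lox/1lox), which denotes Cre recombination of both alleles. Per the methods of the study, each library came from a separate clone of its genotype, and all clones share the J1 background.

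An imprinted gene is transcribed mainly from the copy inherited from 1 parent. The choice of copy is set by DNA methylation at imprinting control regions, which is laid down in the germ line and kept through the early embryo by DNA methyltransferases and zinc finger proteins such as ZFP57. Of the 10 genes, Zim1 is known as maternally expressed and the others as paternally expressed, although for some the bias is limited to certain tissues. ZBTB24 is a zinc finger protein, mutated in a form of ICF syndrome, a human disorder of immunodeficiency and DNA methylation loss at centromeric repeats. The table holds a single sum per gene, so it does not show which parental copy a fragment came from.

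The libraries held 25042261 to 28838924 counts. Zbtb24 itself had 510, 512 and 489 counts across the controls, compared with 888, 925 and 1039 across the libraries labelled knockout, a difference of 0.99 on the log2 scale (SE 0.05). Its count is therefore higher, not lower, in the group labelled knockout. A gene-level sum does not separate transcripts with and without the deleted segment, so it does not check the genotype, and the group is called by its label here. All 10 markers of pluripotent cells examined were detected, at a summed 5100 to 5210 cpm in the control and 6790 to 6830 in the libraries labelled knockout. By the threshold given below, 9 were higher and 1 was lower in the libraries labelled knockout. Zfp42 was the lower one (809 to 474 cpm, log2 -0.77), and Klf4 differed most on the log2 scale (67.6 to 253 cpm, log2 1.90). Both were named after their values were seen. Cpm is the count of a gene relative to the library total, scaled by edgeR's trimmed mean of M values (TMM).

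Sequence around the starts of these genes shows how close some of them lie. Peg3 and Usp29 are transcribed away from each other, and 146 bases of chromosome 7 lie between their annotated starts. The stretch, chr7:6730432-6730577 of GRCm38 on the plus strand, is shown because the pair it separates differed in direction, as described below; capitals mark CG dinucleotides, the sites of DNA methylation, of which it holds 5.

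Peg3-Usp29 stretch: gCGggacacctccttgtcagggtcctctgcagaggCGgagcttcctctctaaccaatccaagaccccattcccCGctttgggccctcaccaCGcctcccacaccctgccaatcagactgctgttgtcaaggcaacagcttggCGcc

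Ndn and Magel2 are shown as a second pair, because they lie close together on the same strand and 1 of them differed between the groups while the values of the other overlapped. Their 250 bases before the RefSeq start, at chr7:62348027-62348276 and chr7:62376729-62376978 on the plus strand, hold 5 and 7 CG dinucleotides. GENCODE, which gives the gene positions and distances here, starts Ndn further upstream, so by that annotation the Ndn stretch is exon sequence.

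Ndn before RefSeq start: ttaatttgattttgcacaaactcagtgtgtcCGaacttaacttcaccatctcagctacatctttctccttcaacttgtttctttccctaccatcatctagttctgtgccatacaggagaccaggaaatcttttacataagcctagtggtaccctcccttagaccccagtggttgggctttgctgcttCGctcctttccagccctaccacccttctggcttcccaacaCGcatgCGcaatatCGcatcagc

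Magel2 before RefSeq start: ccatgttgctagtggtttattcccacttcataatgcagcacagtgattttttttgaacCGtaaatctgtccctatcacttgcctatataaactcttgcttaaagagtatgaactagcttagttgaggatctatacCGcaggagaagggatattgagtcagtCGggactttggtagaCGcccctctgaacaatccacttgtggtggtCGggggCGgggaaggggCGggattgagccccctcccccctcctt

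The motif CAGGACCT, the core of the sequence known to be bound by ZBTB24, was searched on both strands (its reverse complement is AGGTCCTG) in the RefSeq windows from 250 bases before to 50 after each start. Windows were found for 8 of the 10 genes, 13 windows in all; Peg10 and Sgce were not matched. The motif was present in 653 of all 32851 windows (1.99%). It occurred in 3 of the 4 windows of Snrpn and in no window of the other 7 genes. The Snrpn window without it lies at chr7:60005150-60005449. In the others the match began 18, 3 and 8 bases after the RefSeq start. The window at chr7:60450128-60450427 lies outside the GENCODE span of Snrpn (59982495 to 60140219). The 3 Snrpn matches lie in 30-base stretches that were alike in all 30 bases, at chr7:60450142-60450171, chr7:60140205-60140234 and chr7:60047953-60047982 on the minus strand, so they are copies of 1 sequence rather than 3 separate occurrences. Capitals mark the match, which is shown because Snrpn was the gene of the set that held it.

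Snrpn window: gtcagtgcagcAGGTCCTGctcagagaaga

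TGCCGC, the core of the ZFP57 motif when its CG is methylated, occurred in 11.6% of all windows on either strand. Mest and Nap1l5 had 2 matches each, and Zim1 and 1 window of Snrpn had 1. The windows of Peg3, Usp29, Ndn and Magel2 had none. These matches describe the letters in these windows only, and imprinting control regions outside the windows were not searched.

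Between the groups, the 10 genes did not shift as a block. In the libraries labelled knockout, 7 were lower and 2 were higher at a false discovery rate (FDR) of 0.05 in edgeR's quasi-likelihood fit, and Ndn did not pass. The background was wide, because 69.5% of all genes tested passed, 34.4% as higher and 35.2% as lower. The groups did not overlap for 9 of the 10 genes, against 71.5% of all genes. For Peg10, Sgce and Magel2 the difference also reached 1 on the log2 scale, against 17.0% of all genes. The genes were chosen with this contrast in view, so these counts are a description and nothing is read from them. The median difference was -0.58 (log2) over the 10 genes and 0.00 over all genes tested. In bulk libraries, fewer cells with a transcript and less of it per cell cannot be told apart.

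**Figure D1:**
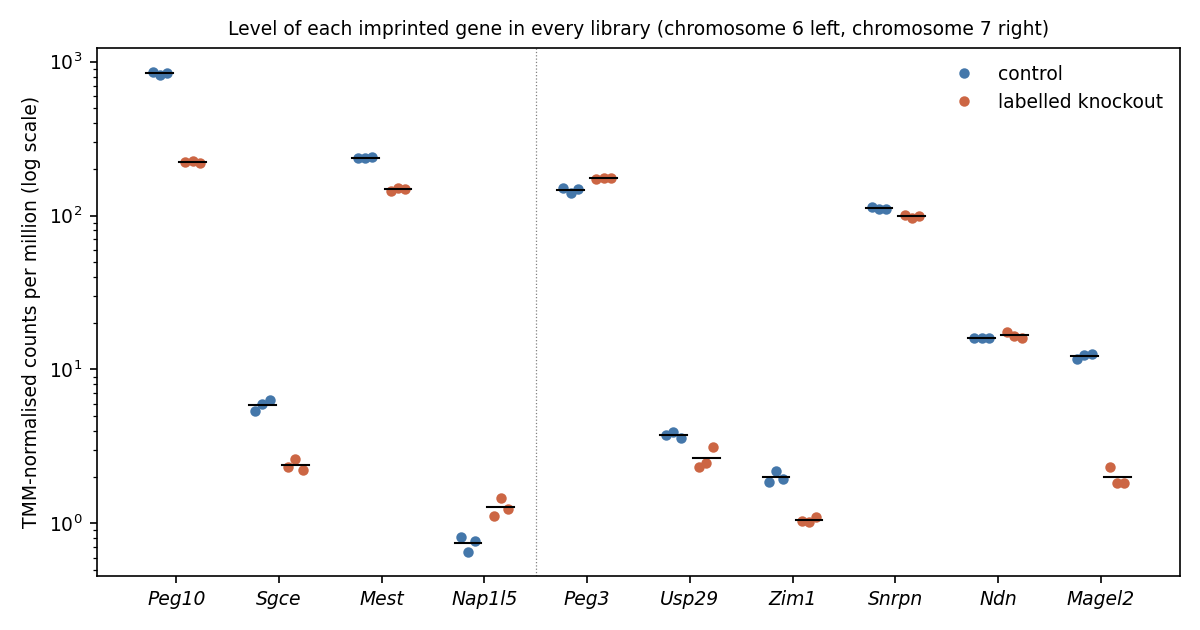
TMM-scaled cpm (log axis) of the 10 imprinted genes in each of 6 libraries, 3 control (blue) and 3 labelled knockout (orange), with a bar at each group's mean. Peg10 stood at a mean of 843 in the control and 223 in the other group, Magel2 at 12.3 and 2.00, and the Ndn points of the groups overlapped.

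On chromosome 6, Peg10 and Sgce start 99 bases apart on opposite strands, and both were lower in the libraries labelled knockout. Peg10 (ENSMUSG00000092035, chromosome 6, 4747306 to 4760517, plus strand) encodes a protein derived from a retrotransposon gag and pol gene and is needed for the placenta. It had 24201, 22661 and 23213 counts across the controls, compared with 5814, 5552 and 6231 across the libraries labelled knockout. Every control library held more Peg10 than any library of the other group, and the fitted level was 3.78-fold lower (log2 -1.92, SE 0.0244). Replicates were tight, at 843 ± 17.8 and 223 ± 2.42 cpm (SD, n = 3 each).

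Sgce (ENSMUSG00000004631, chromosome 6, 4674350 to 4747207, minus strand) encodes epsilon-sarcoglycan, a membrane protein of the dystrophin-associated complex. It had 151, 165 and 175 counts across the controls, compared with 61, 65 and 63 across the libraries labelled knockout. The groups were separate, with a 2.47-fold lower level (log2 -1.30, SE 0.12). The Sgce difference was smaller than that of Peg10, and the ratio of their counts within a library moved from 160, 137 and 133 to 95.3, 85.4 and 98.9. The ratio was lower in each library labelled knockout than in any control library.

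Around this pair, 10 other genes tested started within 1 Mb. Of these, 6 were lower, 1 was higher and 3 did not pass, with a median of -0.71 (log2). Over all genes tested, 35.2% were lower and 34.4% higher. The list of named neighbours reaches further, and Vps50 and Slc25a13, among its genes with the most counts, lie outside this 1 Mb. Vps50, which encodes a subunit of an endosomal recycling complex, was lower by a small amount (69.4 to 56.0 cpm, log2 -0.31, SE 0.0362). Slc25a13, a mitochondrial carrier gene, stood at 119 and 114 cpm and Ppp1r9a at 33.8 and 34.6, and neither passed. The genes lower by the widest margin, named after their values were seen, were Calcr (log2 -3.16) and Col1a2 (-3.15), a fibroblast collagen gene, followed by Pon2 (-2.22). Bet1 (0.01) and Ppp1r9a (0.03) lie among them, so lower genes and genes with no detected difference were mixed along the region. Casd1 (-0.74), the tested gene that starts nearest to Peg10 outside the pair, was lower as well, and Pdk4 (0.29) was the higher one. Both were also named after their values were seen. Col1a2, Casd1 and the pair follow each other among the genes tested.

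Mest (ENSMUSG00000051855, chromosome 6, 30723547 to 30748465, plus strand), which encodes a hydrolase-like protein of mesodermal tissue, was lower as well, with 6630, 6449 and 6558 counts across the controls, compared with 3785, 3745 and 4216 across the libraries labelled knockout. The groups were separate and the level was 1.59-fold lower (log2 -0.67, SE 0.0263). Copg2, a coatomer gene, overlaps the 3′ end of Mest by 912 bases on the opposite strand. Copg2 was higher in the libraries labelled knockout, at 79.4 against 49.7 cpm (log2 0.68, SE 0.0338, adjusted p = 2.81e-23 by edgeR's quasi-likelihood F test after Benjamini-Hochberg correction). The Mest to Copg2 ratio of counts went from 4.63, 4.82 and 4.83 to 1.83, 1.91 and 1.88. The authors counted by strand and discarded antisense fragments, so the opposite strands are counted separately. Within 1 Mb of Mest, 6 of 19 other genes tested were higher, 3 were lower and 10 did not pass. The shares over all genes tested were 34.4% higher and 35.2% lower.

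Nap1l5 (ENSMUSG00000055430, chromosome 6, 58905233 to 58907076, minus strand) is a gene related to the nucleosome assembly proteins. All 1844 bases of it lie within the span of Herc3, on the other strand. It had 23, 18 and 21 counts across the controls, compared with 29, 36 and 35 across the libraries labelled knockout. Each library labelled knockout exceeded each control library, by a fitted 1.69-fold (log2 0.76, SE 0.232). With so few counts, counting error alone gives a coefficient of variation of 22% in the control libraries and 17.3% in the others, above the 11.1% and 14.0% measured between replicates. The host gene Herc3, a ubiquitin ligase gene, stood at 14.2 and 14.1 cpm (log2 -0.02, SE 0.0685). The 3 further genes tested within 1 Mb, Abcg2 (log2 -0.03, SE 0.0334), Tigd2 (0.06, SE 0.0717) and Fam13a (-0.39, SE 0.256), gave intervals that include 0.

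**Figure D2:**
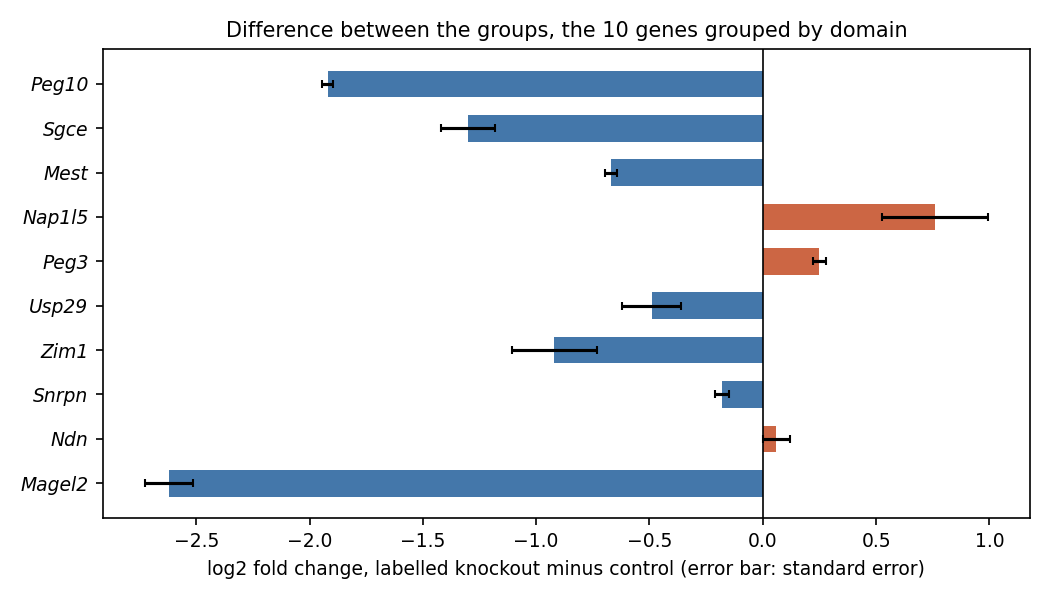
Log2 fold change between the groups (labelled knockout minus control) of the 10 genes, with the standard error of the edgeR fit as the error bar. Bars left of 0 are lower in the libraries labelled knockout, from Magel2 at -2.62 to Snrpn at -0.18; Nap1l5 (0.76), Peg3 (0.25) and Ndn (0.06) lie to the right.

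The Peg3 domain of chromosome 7 held differences in both directions. Peg3 (ENSMUSG00000002265, chromosome 7, 6703892 to 6730431, minus strand) encodes a large zinc finger protein. Its counts were 4226, 3848 and 4087 across the controls, compared with 4529, 4332 and 4929 across the libraries labelled knockout. Scaled by TMM it was 146 ± 5.51 cpm and 175 ± 1.27 cpm (SD, n = 3 each), and the groups did not overlap. This is a 1.19-fold higher level (log2 0.25, SE 0.0277).

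Usp29 (ENSMUSG00000051527, chromosome 7, 6730578 to 6967219, plus strand), a ubiquitin-specific protease gene, starts on the other side of the 146-base stretch printed above. It had 105, 108 and 98 counts across the controls, compared with 61, 61 and 89 across the libraries labelled knockout. The level was 1.40-fold lower (log2 -0.49, SE 0.131), opposite in direction to Peg3. In the libraries labelled knockout its coefficient of variation was 16.4% against 11.9% from counting, with replicate 3 above the other two. The Peg3 to Usp29 ratio was 40.2, 35.6 and 41.7 across the controls, compared with 74.2, 71.0 and 55.4 across the libraries labelled knockout.

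Zim1 (ENSMUSG00000002266, chromosome 7, 6671269 to 6696450, minus strand), a zinc finger gene and the maternally expressed member of the set, starts 34.0 kb from Peg3. It had 52, 60 and 53 counts across the controls, compared with 27, 25 and 31 across the libraries labelled knockout. The groups were separate, with a 1.89-fold lower level (log2 -0.92, SE 0.187). The Peg3 to Zim1 ratio went from 74.2 ± 8.94 to 167 ± 7.2 (SD, n = 3 each). The 17 other genes tested within 1 Mb of the domain had a median of 0.08 (log2). Of them, 9 did not pass, 3 were lower and 5 were higher, against 35.2% lower and 34.4% higher over all genes. Aurkc, a kinase gene of germ cells and the listed neighbour with the most counts, was among the higher ones (6.0 to 9.47 cpm, log2 0.66, SE 0.0869).

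**Figure D3:**
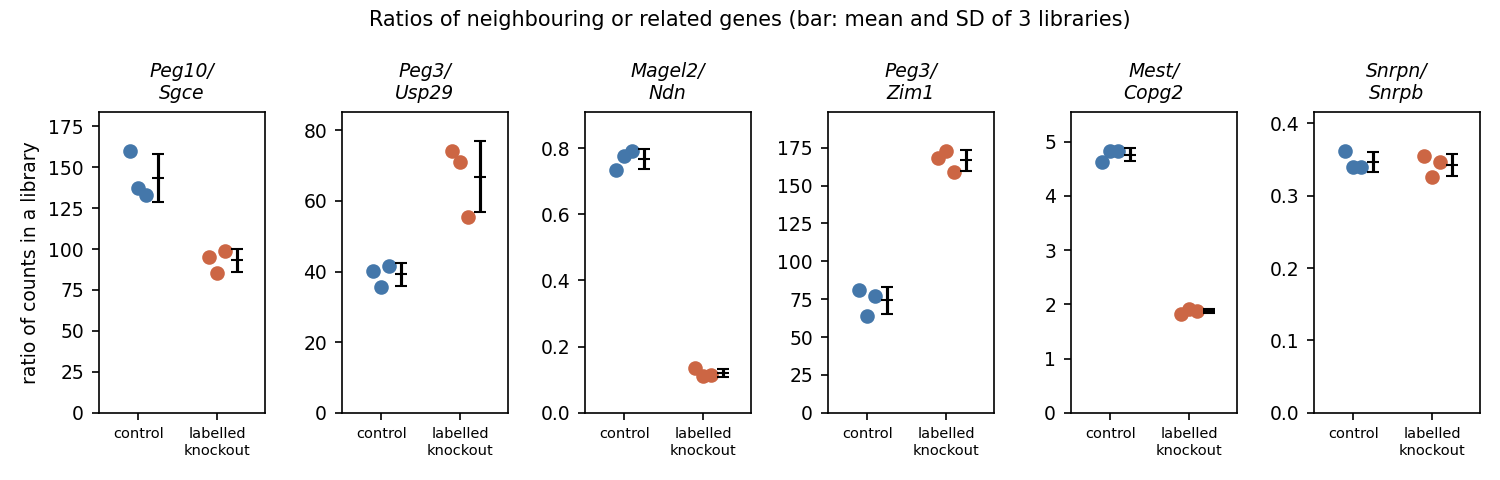
Ratio of the counts of 2 genes in each library, for 6 pairs, with axes from 0, points for libraries and the mean and SD of 3 libraries beside them. The Magel2 to Ndn ratio stood at 0.735 to 0.792 in the control libraries and 0.11 to 0.134 in the libraries labelled knockout, whereas the Snrpn to Snrpb ratios of the groups overlapped.

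The Snrpn difference was small. Snrpn (ENSMUSG00000102252, chromosome 7, 59982495 to 60140219, minus strand) encodes SmN, an Sm protein of the spliceosome that stands in for SmB in brain. It had 3220, 3030 and 3058 counts across the controls, compared with 2637, 2362 and 2824 across the libraries labelled knockout. The scaled groups did not overlap, at 112 ± 2.15 and 98.9 ± 2.67 cpm (SD, n = 3 each), a 1.13-fold lower level (log2 -0.18, SE 0.0298).

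The Snrpn count may be partial. In the GENCODE release used here, 27.3% of its exon bases are shared on the same strand with the gene models Gm38393 and Snurf. The authors counted on an earlier release and discarded fragments that fall on several genes. Snurf, the upstream reading frame of the Snrpn transcript, was listed at 0 in every library. Gm38393, which was named after its values were seen, had 1720, 1523 and 1592 counts across the controls, compared with 1276, 1196 and 1388 across the libraries labelled knockout (log2 -0.25, SE 0.0376). Snhg14, the long host transcript downstream of Snrpn that runs antisense to Ube3a, was lower at 144 against 107 cpm (log2 -0.43, SE 0.028). Ube3a, the ubiquitin ligase gene of Angelman syndrome, stood at 107 and 89.4 cpm and was lower too (log2 -0.26, SE 0.0309).

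Snrpb, which encodes SmB and is the closest relative of Snrpn, differed by about the same amount (323 to 289 cpm, log2 -0.16, SE 0.0247). The Snrpn to Snrpb ratio of counts was 0.362, 0.339 and 0.339 across the controls, compared with 0.355, 0.326 and 0.346 across the libraries labelled knockout, and the groups overlapped. The other 6 Sm core protein genes examined were all higher. Snrpe differed the most of them (138 to 227 cpm, log2 0.72), whereas Snrpd2 and Snrpd3 differed by 0.14 each (log2).

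Ndn and Magel2, which lie in the same wider domain as Snrpn, differed in unlike ways. Ndn (ENSMUSG00000033585, chromosome 7, 62346569 to 62350262, plus strand) encodes necdin, a MAGE family protein of neurons. It had 449, 443 and 438 counts across the controls, compared with 454, 409 and 452 across the libraries labelled knockout. The groups overlapped, at 16 ± 0.0962 and 16.7 ± 0.688 cpm (SD, n = 3 each), and the fitted difference was 0.06 on the log2 scale with an approximate 95% interval from -0.06 to 0.17. The control replicates varied by 0.601%, less than the 4.75% that counting alone gives, so their SD understates the error.

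Magel2 (ENSMUSG00000056972, chromosome 7, 62377010 to 62381640, plus strand) encodes another MAGE protein, which acts with ubiquitin ligases in endosomal recycling, and starts 30.4 kb from Ndn. It had 330, 344 and 347 counts across the controls, compared with 61, 45 and 52 across the libraries labelled knockout. The groups were far apart, with a 6.13-fold lower level (log2 -2.62, SE 0.105), the largest difference of the 10. Within a library, Magel2 had 0.735, 0.777 and 0.792 counts for each count of Ndn in the control group and 0.134, 0.11 and 0.115 in the other.

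Beyond Magel2 lie Mkrn3 and Peg12, further paternally expressed genes of the domain, named after their values were seen. Peg12 was higher (3.79 to 9.35 cpm, log2 1.30, SE 0.096) and Mkrn3 slightly so (6.86 to 7.88 cpm, log2 0.20, SE 0.086). Along this stretch of 4 genes, 1 was thus lower, 2 were higher and 1 overlapped. Over the named neighbours of all domains, 26 of 40 tested passed, or 65.0% against 69.5% of all genes. They were 11 higher and 15 lower, and the median of the 40 was -0.04 (log2). Of the 13 named neighbours tested over the wider Snrpn region, 4 were higher and 9 lower, against 34.4% and 35.2% of all genes. The best counted of them, Cyfip1, an actin regulator gene, was lower (146 to 126 cpm, log2 -0.22), and Herc2, a ubiquitin ligase gene, was higher (112 to 125 cpm, log2 0.15).

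**Figure D4:**
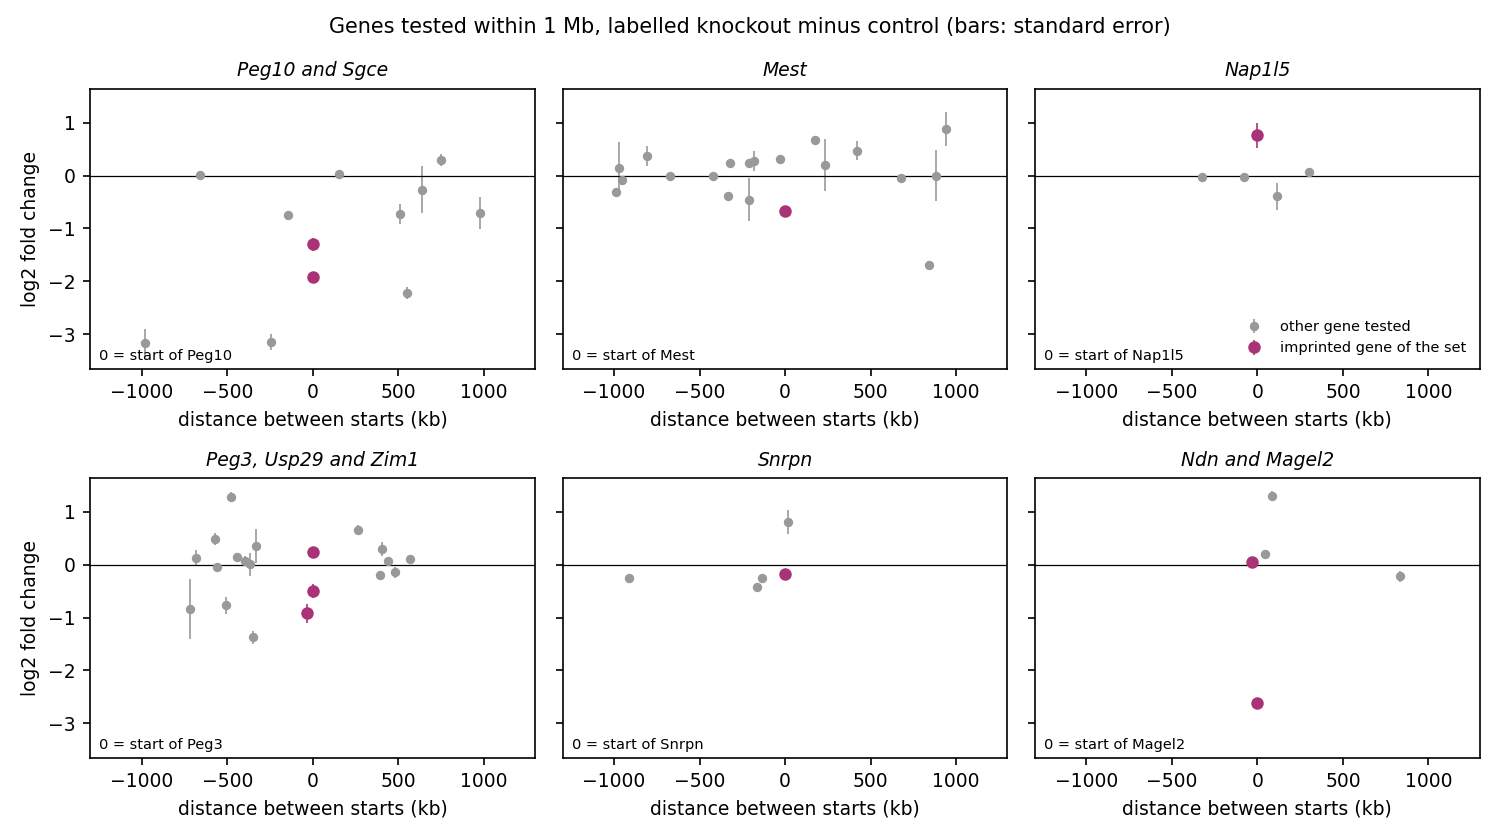
Log2 fold change (labelled knockout minus control, bars are standard errors) of every gene tested within 1 Mb of the imprinted genes, against the distance in kb between starts, with the imprinted genes of the set in purple and other genes in grey. Peg10 and Sgce lie together at -1.92 and -1.30, whereas Ndn (0.06) and Magel2 (-2.62) lie apart.

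Levels per kilobase of the longest transcript spanned a wide range. In the control libraries the order was Peg10 (126 cpm per kilobase), Mest (88.7), Snrpn (53.9), Peg3 (16.8), Ndn (4.33), Magel2 (2.65), Sgce (1.34), Usp29 (0.496), Nap1l5 (0.404) and Zim1 (0.258). No neighbours in this order overlapped over the 3 libraries. In the libraries labelled knockout Mest came first (55.8), then Snrpn (47.7), Peg10 (33.4), Peg3 (20.1) and Ndn (4.51). Nap1l5 (0.689), Sgce (0.544), Magel2 (0.432), Usp29 (0.352) and Zim1 (0.136) followed, and Magel2 and Usp29 overlapped. Peg10 thus moved from the first place to the third, and its share of the counts of the 10 genes went from 61.0% to 61.4% per control library to 32.9% to 33.4% per library labelled knockout. Per kilobase of merged exons instead, the control means of Usp29 and Peg3 were 0.207 and 11 and those of the libraries labelled knockout 0.147 and 13.1. On that length Usp29 stood below Zim1 (0.246) in the controls, and Snrpn (45.8) stood above Mest (37.7) in the libraries labelled knockout. The places of low and high genes thus depend on the transcript length used.

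Over the 6 libraries, the genes most like 7 of the 10 by Pearson r of log2(cpm + 1) were found among 11108 genes averaging 100 counts or more; Nap1l5, Usp29 and Zim1 were below that minimum and were not compared. For Peg10 these were Pmel, St14 and Nes (r from 0.9998 to 0.9999), for Mest Itga3, Fkbp9 and Cnn2, and for Magel2 they included Rasd2 and Homer3. As many as 1143 genes exceeded an r of 0.99 with Peg10, 1061 with Mest and 934 with Magel2. Sgce was closest to Dok4, Frmd8 and Mib2, with 362 genes over 0.99, and Peg3 to Top3a, Pde3b and Epb41l4b, with 80. Snrpn was closest to Cmtr2, Shroom4 and Rassf1, with 14. Ndn had 1 such gene, Pnrc1 (0.9905), followed by Rap1gds1 and Map2k1. The 6 points share the group contrast and the libraries, so these values describe the likeness only.

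Factors known to keep or set imprints were present in both groups. Of 20 genes listed and tested, 5 were higher, 9 lower and 6 did not pass, with a median of -0.04 (log2). The share that passed was 70.0%, near the 69.5% of all genes tested. Trim28, the corepressor recruited by ZFP57, was the most abundant and stood at 2390 and 2400 cpm (log2 0.01, SE 0.0214). Zfp57 was higher (331 to 493 cpm, log2 0.58, SE 0.0236), as was Tet1, a methylcytosine oxidase gene (710 to 782 cpm, log2 0.14). Uhrf1, the partner of the maintenance methyltransferase, stood at 416 and 402 cpm and did not pass. Named after their values were seen, Dnmt3b, a de novo methyltransferase gene, was lower (431 to 102 cpm, log2 -2.07, SE 0.028) and Tet2 was higher (114 to 268 cpm, log2 1.23).

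Imprinted genes of other domains were mostly lower. Over both lists below, 22 of 30 tested were lower and 5 higher, and 90.0% passed. Of all genes tested, 69.5% passed, 35.2% as lower. Of 15 paternally expressed genes tested, 10 were lower and 3 higher, with a median of -0.24 (log2). Of 15 maternally expressed genes tested, 12 were lower and 2 higher, with a median of -0.64. Among the most counted, Gab1, a signalling adaptor gene, differed by -0.24 and Sfmbt2, a Polycomb-related gene, by -1.69, whereas Zdbf2 was higher (0.20). The noncoding RNAs Rian, Meg3 and H19 were lower by -2.44, -2.63 and -3.59. Rian and Meg3 share a cluster on chromosome 12, and H19 lies on chromosome 7, each with other listed genes nearby. The 30 genes tested are therefore not 30 separate domains. These lists were compiled with results of these libraries known.

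**Figure D5:**
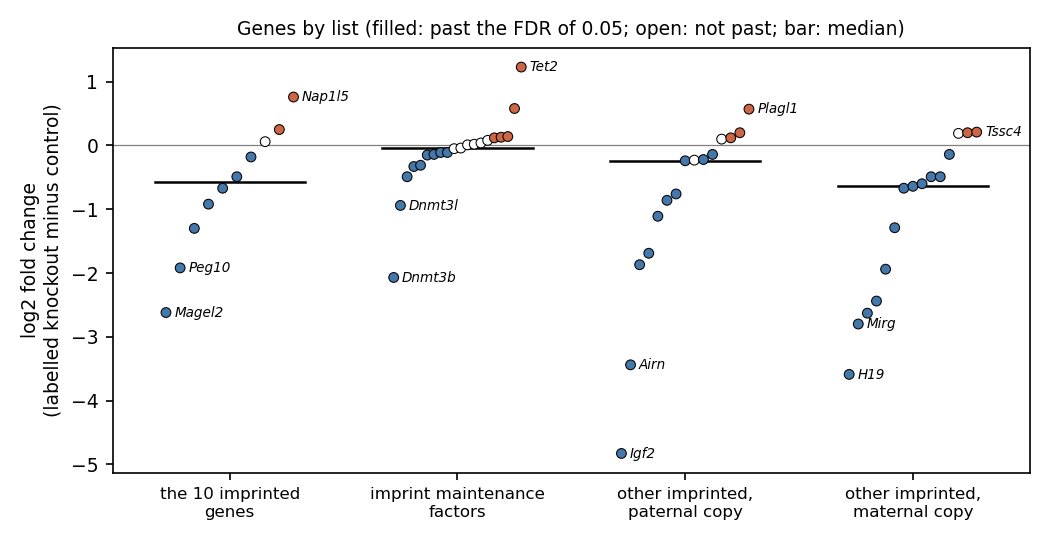
Log2 fold change (labelled knockout minus control) of the 10 imprinted genes, imprint maintenance factors, and other imprinted genes by the copy known to be expressed, with filled points past an FDR of 0.05 and a bar at each median. The medians are -0.58, -0.04, -0.24 and -0.64, and each list holds genes on both sides of 0.

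The protein relatives of the 10 genes differed in both directions. Of 37 relatives tested, 18 were higher and 9 lower, with a median of 0.10 (log2). The share that passed was 73.0%, near the 69.5% of all genes tested. In the MAGE family, to which Ndn and Magel2 belong, Maged1 (169 to 189 cpm, log2 0.16) and Mageb16 (66.7 to 72.9 cpm, log2 0.13) were higher. Maged2 was lower (20.7 to 18.2 cpm, log2 -0.18), and Nsmce3 (21.1 cpm in both groups) did not pass. Of 9 MAGE genes tested, Ndn and Magel2 among them, 3 were higher, 2 were lower and 4 did not pass. Among the retrotransposon-derived gag genes, Arc was lower (55.0 to 20.9 cpm, log2 -1.40) and Pnma2 higher (13.4 to 28 cpm, log2 1.06). Among the nucleosome assembly genes, relatives of Nap1l5, Set (1430 and 1470 cpm) and Nap1l1 (1210 and 1240 cpm) did not pass. Nap1l4 (157 to 181 cpm, log2 0.20) and Tspyl2 (34.6 to 39.5 cpm, log2 0.19) were higher, as was Nap1l5. Of the 9 tested, 5 were higher and 1 lower, against 34.4% and 35.2% of all genes. Dag1, the dystroglycan gene, was lower (log2 -0.40, SE 0.025), and Dmd, the dystrophin gene of the same complex as Sgce, was higher (44.4 to 52.0 cpm, log2 0.23).

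Some markers of other cell types also differed between the groups. The summed level of 9 fibroblast markers was 58.7 to 62.1 cpm in the control libraries and 11.9 to 13 in the libraries labelled knockout, and of the 8 tested 6 were lower and 2 did not pass, with Lum at 0 throughout. Col1a1, the most abundant of them, went from 41.0 to 3.93 cpm. For trophoblast, where Peg10 is abundant, 5 of 7 markers tested were lower and 1 higher, with a summed level of 76.9 to 81.0 against 75.1 to 78.0 cpm and Tpbpa at the limit of 3 counts or fewer in every library. Most of this sum was Tfap2c, which was higher (53.3 to 70.5 cpm); without it the markers summed to 24.5 to 27.2 cpm in the controls and 5.44 to 6.82 in the libraries labelled knockout, with Krt7 at 15.1 and 1.70 cpm and Gata3 at 4.11 and 1.47. For neural cells, which express Ndn, Magel2 and Snrpn, 4 of 8 were higher and 3 lower (298 to 304 against 305 to 311 cpm, with Neurog2 and Dcx at that limit). That near-equal sum held Tubb3, higher at 236 against 176 cpm, and Nes, lower at 18.9 against 95 cpm. Without Tubb3 it was 122 to 128 cpm in the controls, most of it Nes, against 70.9 to 72.7 cpm. Olig1 (0.362 to 18.1 cpm, log2 5.63) and Olig2 (0.0604 to 10.9 cpm, log2 7.39) were higher in the libraries labelled knockout. These had the largest log2 differences of the neural list and were named after their values were seen. Mesoderm, in which Mest is known, had 2 of 6 higher and 2 lower (17.2 to 18.8 against 11.3 to 12.7 cpm, with Msgn1 at the limit), and endoderm 1 higher and 3 lower of 6 (10.8 to 11.9 against 9.76 to 11.8 cpm, with Afp and Ttr at the limit). The part of these cells in the differences of the 10 genes was not tested.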

How the data were processed

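Poly(A) RNA of 6 mESC cultures was sequenced as TruSeq Stranded mRNA libraries made from 2 µg of total RNA with 8 cycles of PCR. The authors removed ribosomal RNA reads with Bowtie2 (version 2.1.0), aligned to mm10 with TopHat (2.0.10) and counted fragments per gene by strand with HTSeq (0.6.1), discarding antisense, multi-gene and multi-location fragments. The raw counts they deposited were used as they stand. Gene names, positions, exon overlaps and transcript lengths came from GENCODE (GRCm38), in a later release than the authors counted with. It matched 42425 of 43309 genes by Ensembl ID. Promoter windows came from RefSeq (GRCm38.p6).

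Genes with at least 10 counts in 1 or more libraries (16823) were fitted with edgeR 4.0.16 in R 4.3.3, using TMM scaling and quasi-likelihood F tests with Benjamini-Hochberg adjustment over all of them, after a test on simulated data. The groups were taken from the genotype labels, with no covariates. DESeq2 (1.42.0), other scalings, filters, a replicate block and each library left out served as alternatives. The 10 genes and all lists were chosen with earlier results of these data known. All 10 were named in full, and of each other list at most 4 genes by total counts, plus Snrpb; exceptions are stated where they occur, and 1 gene named by the likeness rule is not reported here. Fragments carried no molecular identifiers, so intervals and errors from counting are lower limits of the true error.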

Additional observations from a re-analysis of the deposited data

How the results depend on the processing

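All 10 genes kept the direction of their difference and their side of the FDR of 0.05 under the alternatives that changed the tool, the scaling or the filter, added the replicate block or left out 1 library, with fitted values for Ndn from 0.00858 to 0.09 and for Usp29 from -0.64 to -0.40 (log2). Requiring a difference of at least 1 on the log2 scale left 2865 genes of all tested, 3 of the 10 genes, 7 domain neighbours, 2 imprint maintenance factors, 11 other imprinted genes and 4 relatives, fewer by the construction of the rule. Scaling by library totals alone moved the median of all genes by -0.049 (log2) and the higher share of calls from 49.4% to 43.4%. With the replicate block 11801 genes passed, against 11697 without it. Libraries with the same number had correlations of 0.00617, 0.0715 and 0.0155 between their deviations from the group means. Controls 2 and 3 correlated best with the library of their own number, whereas control 1 correlated best with replicate 3 of the other group (0.0541). All values were small, from -0.0718 to 0.0715, so the numbers were not taken to pair the samples. The counts of the low genes (Nap1l5, Zim1, Usp29, Sgce) limit their precision, with counting errors of 7.82% to 22% per library.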
